A study of Mus musculus with 6 samples.

Results

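The genes described here encode the protein part of the cytosolic ribosome. They were chosen by name, as Rpsa or a symbol built from Rpl, Rps or Rplp and a number, with genes on chromosome 15 left out, which gave 80 of the 22602 genes in the table. 47 of them belong to the large (60S) subunit and 33 to the small (40S) subunit. 79 had a mean of at least 1 RPKM (reads per kilobase of a gene's cDNA and per 1000000 reads) over all libraries and were tested, and the remaining gene was Rpl3l. The rule uses no measured value.

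6 cultures of mouse embryonic stem (ES) cells were profiled by mRNA sequencing in paired reads of 100 bases. 3 were clones named A6, B8 and C4, with a Sim2-Flag-IRES-Venus construct under the hCMV*-1 promoter, bound by a transactivator when tetracycline is removed. 3 were independent cultures, numbered 0, 1 and 2, of the parental line EBRTcH3 (EB3), which has the inducible system with Venus but no Sim2 transgene. All 6 were kept in LIF and serum and then without tetracycline for 26 h. Each Sim2 library is 1 culture of 1 clone, and the EB3 libraries share 1 line.

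The ribosome is assembled in the nucleolus from ribosomal RNA and a fixed set of proteins, with few exceptions 1 copy of each per particle. Ribosomal protein genes are among the most transcribed genes of growing cells. Their messengers usually begin with a run of pyrimidines, the 5′ terminal oligopyrimidine (TOP) tract, through which mTOR signalling controls their translation. Mammalian genomes also hold many processed pseudogenes of these genes, intronless copies made from spliced messengers, so a read from a ribosomal protein messenger can match several places.

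The depth was 25095861 to 28269340 reads per library, read back from the steps between RPKM values. Sim2 had 196, 212 and 168 RPKM in A6, B8 and C4, and 0.130, 0.0917 and 0.104 RPKM in EB3-0, EB3-1 and EB3-2, as labelled (log2 fold change 8.30 ± 0.12, SE; limma, adjusted p = 1.55e-08). The ES cell markers Pou5f1, Sox2, Nanog, Esrrb and Zfp42 all passed the filter and summed to 2847 to 3353 RPKM per library. Markers of primitive endoderm (0 of 4 passed the filter, sums 1.25 to 2.69 RPKM), trophoblast (1 of 3, 1.36 to 2.24) and fibroblasts (1 of 5, 10.1 to 13.8) were low. EB3-0 stood apart from EB3-1 and EB3-2: over the ribosomal protein genes its median log2 difference from their mean was 0.37, whereas EB3-1 and EB3-2 differed by a median of -0.0019. Comparisons of the clones with EB3 are given also without EB3-0 where it moved them.

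Sequences of read length were compared with the mm9 genome, because the number of places that a read can match differs between these genes. For each spliced transcript (GENCODE vM1, 79 of 80 genes matched, Rpl41 not) every 100-base window was searched for copies outside the gene with at least 90% identity. The stretches shown are coding, lie inside 1 exon, and were taken for the largest decrease (Rpl10), a gene at a low level (Rps6) and 2 at high levels (Rpl32, Rps3). All 164 coding windows of Rpl10 within 1 exon had an exact copy elsewhere. An example was read at chrX:71517139-71517238, plus strand, and the same letters stand at chr12:111133122-111133221, minus strand.
Rpl10: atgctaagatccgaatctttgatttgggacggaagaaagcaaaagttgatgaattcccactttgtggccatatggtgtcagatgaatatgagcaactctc
The same held for all 345 such windows of Rps6. An example was read at chr4:86502664-86502763, minus strand, and is repeated at chr14:74196992-74197091, minus strand.
Rps6: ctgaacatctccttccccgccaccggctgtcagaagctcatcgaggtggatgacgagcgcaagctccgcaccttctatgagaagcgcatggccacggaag
In Rpl32 none of 111 coding windows had an exact copy, and 99 had a copy with 1 or 2 differences. The pair below is chr6:115757049-115757148, minus strand, and chr13:105221201-105221300, minus strand, and the capital marks the base that differs.
Rpl32: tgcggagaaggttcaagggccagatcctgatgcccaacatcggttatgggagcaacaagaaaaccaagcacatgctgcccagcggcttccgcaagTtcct
Rpl32 copy: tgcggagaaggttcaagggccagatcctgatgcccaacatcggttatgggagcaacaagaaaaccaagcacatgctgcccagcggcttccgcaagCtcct
In Rps3 0 of 213 coding windows had an exact copy, 7 had a copy with 1 or 2 differences and 32 had none at this identity. The first of the 32 lies at chr7:106631111-106631210, minus strand.
Rps3: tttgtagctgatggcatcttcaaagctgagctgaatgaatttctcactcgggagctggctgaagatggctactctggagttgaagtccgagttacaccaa

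The levels of the 80 genes were far from equal. In EB3 their mean levels ran from 0.769 RPKM for Rpl3l, the form known from striated muscle, to 3238 RPKM for Rpl41, with a median of 79.8 RPKM. The 90th percentile was 65.8 times the 10th (870 against 13.2 RPKM). Genes of the mitochondrial ribosome, whose products also form a particle of fixed composition, gave a reference: the same ratio was 7.21 over 76 genes, with a median of 61.3 RPKM. The 40S genes had a median of 296 RPKM and the 60S genes 72.6 RPKM, and both subunits had genes below 10 and above 1000 RPKM.

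The 5 highest genes took 33.7 to 34.7% of the reads of all 80 in every library. Rpl41 (chromosome 10, 127985166 to 127986224), which encodes a very short peptide of the 60S subunit, had 3229, 3244 and 2885 RPKM in A6, B8 and C4, and 4097, 2821 and 2796 RPKM in EB3-0, EB3-1 and EB3-2. Rplp1 (chromosome 9, 61761090 to 61762317), an acidic protein of the stalk that recruits translation factors, had 2718, 2798 and 2678 RPKM in the clones, and 3883, 2457 and 2529 RPKM in EB3. In both genes EB3-0 was above the other 5 libraries, and the clones lay above EB3-1 and EB3-2. Rpl4, which lines the peptide exit tunnel, reached 1389 ± 18.9 RPKM across the clones against 1510 ± 212 RPKM in EB3 (SD, n = 3 each). Rpl32 reached 1222 ± 96.1 and 1344 ± 356 RPKM (SD, n = 3 each). The larger SDs in EB3 came from EB3-0, which was highest in these 4 genes.

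The 5 lowest tested genes also encode proteins of the assembled particle. Rpl29 (chromosome 9, 106331870 to 106333898) had 3.09, 3.23 and 2.19 RPKM in A6, B8 and C4 and 4.18, 3.79 and 4.48 RPKM in EB3-0, EB3-1 and EB3-2. Rpl38 (chromosome 11, 114529857 to 114533645), the gene of the mouse Tail short mutant, had 3.89, 4.63 and 3.26 RPKM across the clones and 5.86, 5.27 and 4.57 RPKM in EB3. The clones lay below all EB3 cultures for Rpl29, whereas for Rpl38 the B8 value lay above EB3-2. Rpl11, a protein of the 5S particle that binds Mdm2, had 8.21 ± 1.03 RPKM across the clones against 8.85 ± 0.846 RPKM in EB3 (SD, n = 3 each). Its partner Rpl5 was also low, at 23.2 ± 2.27 and 21.9 ± 2.08 RPKM. Rps13 had 7.60 ± 1.76 and 9.81 ± 2.22 RPKM, and Rpl24, the gene of the Belly spot and tail mutant, 10.1 ± 2.19 and 10.2 ± 0.837 RPKM (SD, n = 3 each). At these levels the tested genes still had at least 34 reads in each library.

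**Figure D1:**
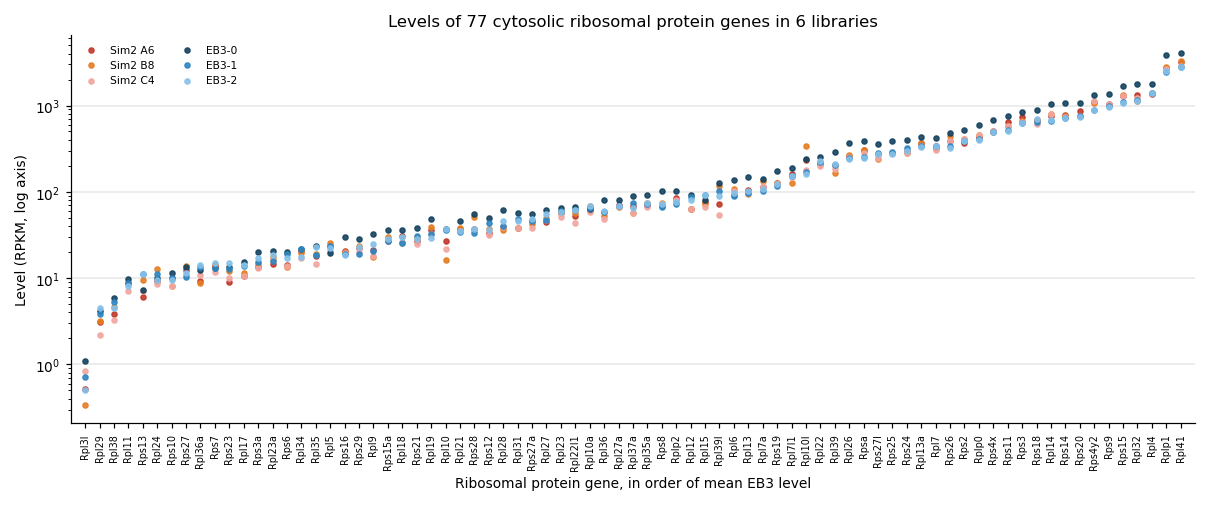
Levels of 77 cytosolic ribosomal protein genes in RPKM on a log axis, with 1 point per library and genes in order of their mean EB3 level. The genes span 0.769 to 3238 RPKM, and EB3-0 (darkest blue) is the highest library for most genes in the upper part of the range.

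The stalk proteins Rplp0, Rplp1 and Rplp2 are bound to each other in a fixed ratio on the ribosome, yet their messengers were listed at very different levels. Rplp0, the scaffold of the stalk, had 430, 458 and 454 RPKM across the clones and 591, 404 and 402 RPKM in EB3. Rplp2 had 84.7, 78.7 and 80.2 RPKM across the clones and 102, 72.8 and 76.2 RPKM in EB3. The clones lay inside the range of the EB3 cultures in all 3 genes, and Rplp1 exceeded Rplp2 in every library. Exact copies covered 22.2% of the windows of Rplp0, 30.1% of Rplp1 and 39.1% of Rplp2, and copies with up to 2 differences 78.9, 78.0 and 90.7%. Rpsa, the 40S protein also described as a laminin receptor, had 304, 306 and 283 RPKM across the clones and 390, 250 and 249 RPKM in EB3.

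The level of a gene moved with the share of its sequence that has an exact copy elsewhere. Across 79 genes Spearman's rho of the EB3 level with the percent of windows that have an exact copy was -0.58, and with the levels in the clones it was -0.59. The points share 6 libraries, and genes are not independent replicates, so these values are descriptions. The relation was weaker with copies of up to 2 differences (rho = -0.24), with the number of places that hold at least 80% of the coding sequence (-0.28), with the percent of windows inside 1 exon (0.30), and with cDNA length (0.06, 80 genes). These measures of copies were chosen with the levels known.

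Genes were therefore described in 3 classes, with limits chosen after the values were seen. 19 genes with an exact copy for under 20% of windows had a median EB3 level of 595 RPKM. 24 genes with 20 to 50% had 87.3 RPKM, and 36 genes with 50% or more had 33.7 RPKM. Just below and above the lower limit lay Rps14 (17.6%, 838 RPKM) and Rpl21 (20.3%, 38.8 RPKM), and around the upper limit Rpl5 (47.4%, 21.9 RPKM) and Rpl28 (51.1%, 49.2 RPKM). Of the 31 genes below 50 RPKM, 23 had exact copies for 50% or more of windows (median 71.8%), and of the 14 at or above 500 RPKM only Rps18 did (median 10.5%). The matched transcript could differ in length from the listed cDNA, with 3706 against 502 bases for Rps20 and 1347 against 703 for Rps9. For Rpl12 it was 1242 against 638 bases, and for Rps6 878 against 1394 bases. The percents refer to the matched transcript, so the class of such genes is uncertain. This includes Rps20 (852 RPKM) and Rps9 (1097 RPKM) among the 14 high genes, so the count of high genes with many copies is uncertain too. Rps6 (chromosome 4, 86500003 to 86503271), the substrate of S6 kinase and one of the best studied proteins of the 40S subunit, was listed at 20.1, 19.3 and 16.9 RPKM in EB3 and had exact copies for 94.4% of its windows. Rps27 had 11.7 ± 1.64 RPKM in EB3 (SD, n = 3) and 99.6%. In contrast, Rps3, which lies at the mRNA entry of the 40S subunit, had 699 RPKM and an exact copy in 0% of windows.

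Some genes did not follow this order. Rps18 had 738 RPKM with exact copies for 53.5% of windows. At the other end Rps21 (32.1 RPKM) had 10.5% exact copies and a window inside 1 exon in 0% of cases. Rps15a (30.4 RPKM, 3.08%) is listed with a cDNA of 5134 bases, the longest of the tested genes, whereas the next were Rpl7l1 with 2606 and Rpl22 with 2040 bases. The length enters the denominator of RPKM. The mitochondrial ribosomal protein genes had a median of 0% of windows with an exact copy, and 54 of 76 had no copy of 80% of the coding sequence, against 5 of the 79 cytosolic genes, which had up to 81 such copies (Rpl21). The relation was not particular to the cytosolic genes. Over the 76 mitochondrial ones rho of the EB3 level with the percent of exact copies was -0.42. 32 of the 80 genes overlap another gene of the table, 20 of them a small nucleolar RNA gene, and the value of Rpl26 is uncertain because the same-strand gene Gm15772 (297 RPKM in EB3) lies over it. Same-strand genes with reads also overlap other members. Among them are Snora65 (36.8 RPKM in EB3) at Rpl12, Gm15450 (14.2) at Rps23, Gm9846 (8.13) at Rps27 and Rpl34-ps1 (11.7) at Rpl34. These values are uncertain as well. How reads with several equal positions, or reads across exon junctions, were placed is not given in the sources used here, and their part in these levels was not tested.

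**Figure D2:**
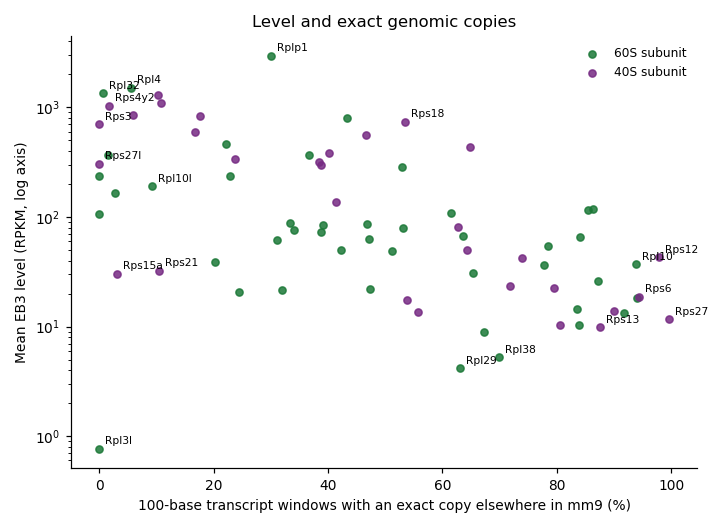
Mean EB3 level (RPKM, log axis) against the percent of 100-base transcript windows that have an exact copy elsewhere in mm9, 1 point for each of 76 genes, coloured by subunit. Apart from Rplp1 (2956 RPKM at 30.1%), the genes above 1000 RPKM have exact copies for under 20% of windows. For Rps9 this is uncertain, as its matched transcript is longer than its cDNA. Genes near 100% lie between 10 and 50 RPKM, with Rpl3l as the low exception at 0%.

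All 80 genes together took 1.95, 1.92 and 1.87% of the reads in A6, B8 and C4, and 2.49, 1.80 and 1.80% in EB3-0, EB3-1 and EB3-2. The means were 1.91 ± 0.0412% in the clones and 2.03 ± 0.400% in EB3 (SD, n = 3 each), so the clones lay between EB3-0 and the other cultures. In these bulk samples fewer cells with a given level and less RNA per cell cannot be told apart.

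The comparison of the clones with EB3 asks which messengers differ between clones with induced SIM2, a bHLH-PAS transcription factor, and the parental line. All cultures were without tetracycline. An effect of SIM2 therefore cannot be told apart from other differences between the clones and the parental line. 0 of the 79 tested genes differed (limma on log2(RPKM + 0.5), adjusted p under 0.05), against 0.699% of all 11595 tested genes, and the smallest adjusted p was 0.0674. At an unadjusted p under 0.05 there were 15, against 17.8% of all tested genes, and all 15 were lower in the clones, against 9.36% of all. With eBayes without an intensity trend the counts were 0 and 14. The median log2 fold change was -0.12, beside -0.0055 over all tested genes. 68 of 79 genes were lower in the clones. That number was 70 with each library centred on its median, 60 with quantile normalization, 46 with each library's trend with cDNA length removed, and 43 without EB3-0. The median was -0.018 without EB3-0, which is closer to the median of all genes in that contrast (-0.010).

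In 17 genes all 3 clones lay below all 3 EB3 cultures, against 13.4% of all tested genes, and in 0 genes all clones lay above, against 12.7%. Without EB3-0 the clones lay below both remaining cultures in 18 genes, against 26.6% of all tested genes, and above both in 23, against 22.7%, so the absence of genes above EB3 rested on that library. The 17 were Rpl7, Rpl10, Rpl12, Rpl15, Rpl17, Rpl22, Rpl22l1, Rpl28, Rpl29, Rpl31, Rpl36a, Rpl39, Rps3a, Rps6, Rps23, Rps27a and Rps27l. 12 of them are 60S and 5 are 40S genes. By class of exact copies, 2 of 18 tested genes under 20%, 6 of 24 at 20 to 50%, and 9 of 36 at 50% or more were in this group. The median log2 fold changes of the 3 classes were -0.10, -0.12 and -0.17. Without EB3-0 they were 0.074, -0.011 and -0.085, so the first turned positive, and 2, 6 and 10 genes lay below and 8, 10 and 4 above both remaining cultures.

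The 5 largest decreases were in Rpl10, Rpl29, Rpl36a, Rpl12 and Rpl39l, and none passed the adjusted threshold. Rpl39l had 72.5, 116 and 54.1 RPKM in A6, B8 and C4 and 125, 103 and 89.5 RPKM in EB3-0, EB3-1 and EB3-2. B8 thus overlapped EB3 (log2 fold change -0.44 ± 0.25, SE; limma, adjusted p = 0.412). Rpl10 (chromosome X, 71516155 to 71518474), which joins the 60S subunit late and completes its peptidyl transferase centre, had 26.8, 16.4 and 21.9 RPKM in A6, B8 and C4 and 37.5, 35.8 and 37.5 RPKM in EB3-0, EB3-1 and EB3-2. The groups did not overlap, and B8 was lowest. The log2 fold change was -0.78 ± 0.16 (SE; limma, adjusted p = 0.0750; exact permutation p = 0.1, the smallest that 3 libraries against 3 allow), and it lay between -0.94 and -0.60 under every other setting. Over the whole transcript 93.9% of the windows of Rpl10 have an exact copy elsewhere, so its value is uncertain.

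Rpl12 (chromosome 2, 32817232 to 32819565), a protein at the base of the stalk, had 63.6, 63.9 and 62.8 RPKM across the clones and 91.8, 87.8 and 80.4 RPKM in EB3. The clones lay close together and below every EB3 culture. Its log2 fold change of -0.45 ± 0.08 (SE) had the smallest adjusted p of the group, 0.0674 by limma. Rpl36a (chromosome X, 131120193 to 131122601) had 9.29, 8.89 and 10.8 RPKM across the clones and 12.3, 13.6 and 14.3 RPKM in EB3, which gave -0.45 ± 0.12 on the log2 scale (SE; limma, adjusted p = 0.116). Here too the groups did not overlap. Exact copies covered 91.7% of the windows of Rpl36a, so its value is uncertain as well. Rpl29, whose values stand above, had -0.49 ± 0.17 on the log2 scale (SE; limma, adjusted p = 0.192). Exact copies covered 63.0% of the windows of Rpl29 and 46.8% of those of Rpl12, which limits these values too. The share for Rpl12 is itself uncertain, because its matched transcript (1242 bases) is longer than its listed cDNA (638 bases).

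The 5 largest increases were small, with adjusted p-values from limma of 0.473 to 0.786. Apart from Rpl10l, which had 0.36 ± 0.24 (SE), they were 0.11 ± 0.17 for Rps4y2, 0.11 ± 0.16 for Rps26, 0.09 ± 0.14 for Rps27 and 0.08 ± 0.11 for Rpl5 on the log2 scale. In each of the 5 the clones overlapped the EB3 cultures.

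**Figure D3:**
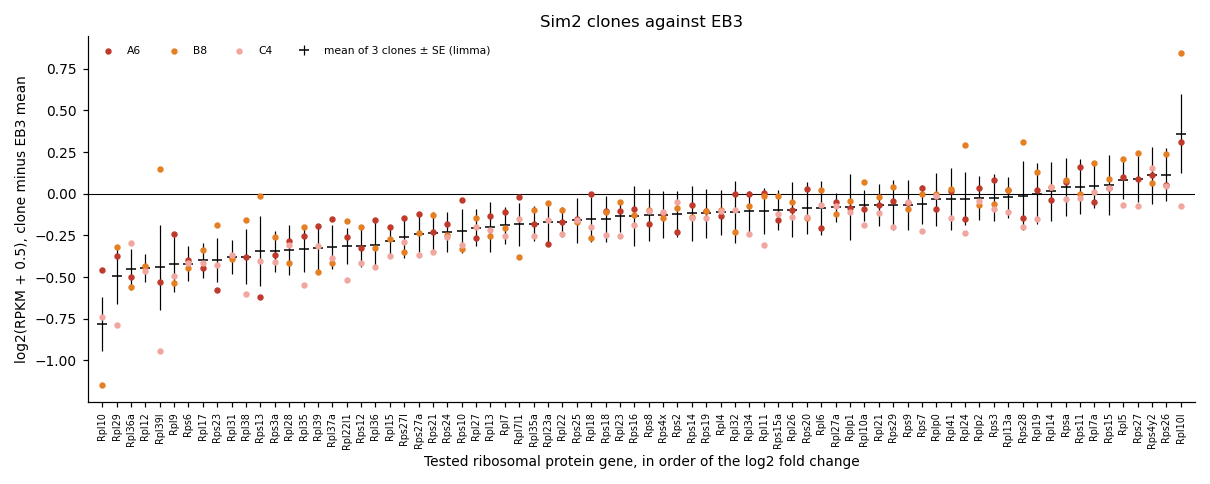
Difference of each clone from the mean of 3 EB3 cultures on the log2(RPKM + 0.5) scale for 76 tested genes, in order of the log2 fold change. Bars give the limma SE. Most means lie between -0.5 and 0.2, below 0 in 65 genes, and B8 stands apart from A6 and C4 for Rpl39l, Rpl24, Rps28 and Rpl10l.

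Without EB3-0 the call changed. 6 of 79 genes then passed an adjusted p of 0.05 in limma, against 5.99% of all tested genes. Rpl12 (-0.40 ± 0.06, SE), Rpl15 (-0.34 ± 0.07), Rpl31 (-0.29 ± 0.06) and Rpl36a (-0.51 ± 0.11) were lower in the clones, with adjusted p-values from limma of 0.0291 to 0.050, against 3.45% of all tested genes. Rps15 (0.26 ± 0.05) and Rps4y2 (0.30 ± 0.05) were higher, with 0.0363 and 0.0308, against 2.54%. Exact copies covered 46.8, 33.3, 42.2 and 91.7% of the windows of the lower genes in the order given, the first uncertain as stated above. They covered 10.2 and 1.66% of those of Rps15 and Rps4y2. Rpl15 had 76.3, 72.8 and 67.6 RPKM across the clones and 81.4, 91.4 and 91.3 RPKM in EB3, and Rpl31 had 38.1, 37.8 and 38.3 against 56.2, 47.8 and 45.5 RPKM. Both groups of values were separate with EB3-0 as well. Rps15, in contrast, had 1291, 1339 and 1287 RPKM across the clones and 1684, 1100 and 1075 RPKM in EB3, so the clones lay between EB3-0 and the other cultures. Rps4y2 had the same order, with 1091, 1056 and 1126 RPKM against 1320, 882 and 887 RPKM.

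The clones differed from each other less than the 3 EB3 cultures did: the median SD over the 79 genes was 0.10 on the log2 scale among clones and 0.24 among EB3 cultures, beside 0.14 and 0.16 over all tested genes. Without EB3-0 the order was the opposite, with a median SD of 0.043 between EB3-1 and EB3-2 in these genes and 0.046 over all. The largest spread among clones was in Rpl39l (SD 0.55), Rpl10l (0.46) and Rpl10 (0.35), and in each B8 was the highest or the lowest clone. On chromosome X, Rpl10, Rpl36a, Rpl39 and Rps4x all had lower means in the clones (median log2 fold change -0.39), and 3 of the 4 did not overlap with EB3, against 13.4% of all tested genes that lay below EB3 in every clone and 17.1% of the 385 tested genes on this chromosome. Without EB3-0 the median of the 4 was -0.34 and the 3 again lay below. This stands against 26.6% of all tested genes and 38.7% of the 385 on this chromosome.

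The difference of EB3-0 from the other EB3 cultures was examined against cDNA length, since the clone comparison moved with this library. EB3-0 was above the mean of EB3-1 and EB3-2 in 71 of the 79 tested genes. Over all tested genes this held for 5789 of 11595, and Spearman's rho of the difference with cDNA length was -0.61. The ribosomal protein genes are short, with a median cDNA of 707 bases against 2732 over all tested genes. Under 500 bases the median log2 difference was 0.44 in 16 ribosomal protein genes and 0.33 in 135 other genes. From 500 to 1000 bases it was 0.37 in 45 and 0.34 in 784 genes, and from 1000 to 2000 bases 0.38 in 14 and 0.21 in 2757 genes. From 2000 to 4000 bases it was 0.16 in 3 ribosomal protein genes and -0.0052 in 4739 others. Above 4000 bases, Rps15a was at 0.36 and the other 3101 genes at a median of -0.31. The median of the ribosomal protein genes was above that of the other genes in each of these classes, by least between 500 and 1000 bases. With each library's trend with length removed, the median of 0.37 became 0.10.

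Among the ribosomal protein genes themselves the EB3-0 difference followed length only loosely (rho = -0.14, 79 genes), and it varied with level. In genes under 1000 bases it was 0.14 in the 13 members with 1 to 20 RPKM in EB3, 0.36 in the 22 with 20 to 100 RPKM and 0.49 in the 26 with more. Other genes of that length had 0.26, 0.37 and 0.43 in the same classes of level. The shortest cDNAs were those of Rps28 (327 bases, log2 difference 0.65), Rpl38 (369 bases, 0.23) and Rps29 (390 bases, 0.44). The lowest difference was that of Rps13 (582 bases, -0.58), with 7.24 RPKM in EB3-0 and 11.1 and 11.1 RPKM in EB3-1 and EB3-2. The 3 classes of exact copies, from few to many, had medians of 0.44, 0.39 and 0.31. What made EB3-0 differ is not given in the sources used here and was not tested.

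**Figure D4:**
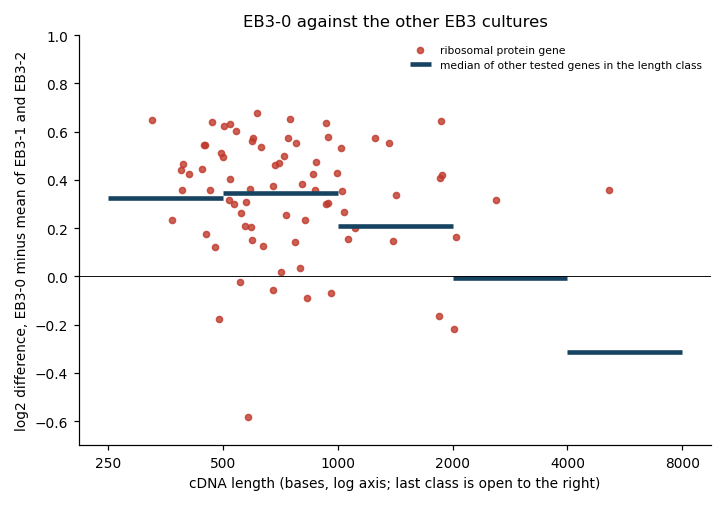
Difference of EB3-0 from the mean of EB3-1 and EB3-2 on the log2(RPKM + 0.5) scale against cDNA length (log axis), with 1 red point for each of 76 ribosomal protein genes and blue bars at the median of the other tested genes in each length class. Most points lie above 0, and most of those over 1000 bases lie above the bar of their class.

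Several members are paralogs of a neighbour in the list. Rpl10l (chromosome 12, 67384366 to 67385388, 1 exon), a retrogene of Rpl10 known from male germ cells, had 231, 336 and 177 RPKM in A6, B8 and C4 and 239, 168 and 162 RPKM in EB3-0, EB3-1 and EB3-2. This was 8.64, 20.5 and 8.08 times Rpl10 in the clones and 6.36, 4.70 and 4.31 times in EB3, so the ratio was higher in every clone (exact permutation p = 0.1, the smallest possible). B8 was the highest library for Rpl10l and the lowest for Rpl10. Exact copies covered 93.9% of the windows of Rpl10 and 9.22% of those of Rpl10l. Copies with up to 2 differences covered 62.9% of the windows of Rpl10l, so the ratio of the 2 genes is uncertain. Their most alike coding stretch of 100 bases within 1 exon is shown with the differing bases in capitals, from chrX:71518069-71518168, plus strand, and chr12:67384858-67384957, minus strand. It had 12 differences, so the parent and this retrogene differ more than Rpl10 and its exact copies.
Rpl10: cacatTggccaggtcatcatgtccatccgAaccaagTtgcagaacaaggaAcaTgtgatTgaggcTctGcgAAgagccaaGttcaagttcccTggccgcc
Rpl10l: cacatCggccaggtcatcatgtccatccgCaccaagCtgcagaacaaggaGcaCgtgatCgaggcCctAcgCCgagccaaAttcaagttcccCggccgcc

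Rps4y2 (chromosome 6, 148303178 to 148304118, 1 exon) is an intronless relative of the X-linked Rps4x, and RefSeq lists it for GRCm38 as the transcribed pseudogene Rps4l. It was at 2.16, 2.12 and 2.21 times the level of Rps4x in the clones and 1.93, 1.79 and 1.81 times in EB3, without overlap (exact permutation p = 0.1). Exact copies covered 1.66% of its windows and 46.6% of those of Rps4x. Their most alike coding stretches had 19 differences, and lie at chrX:99383212-99383311, minus strand, and chr6:148303343-148303442, plus strand.
Rps4x: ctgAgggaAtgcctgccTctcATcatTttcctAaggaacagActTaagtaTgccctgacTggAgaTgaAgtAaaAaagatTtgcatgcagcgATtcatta
Rps4y2: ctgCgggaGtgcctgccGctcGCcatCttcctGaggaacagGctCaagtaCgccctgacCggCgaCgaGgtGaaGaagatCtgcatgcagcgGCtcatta

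Rps27l, a relative of Rps27 known as a p53 target, was at 22.1, 17.1 and 22.5 times Rps27 in the clones and 26.5, 27.5 and 24.3 times in EB3, lower in every clone (exact permutation p = 0.1). Exact copies covered 0% of its windows against 99.6% of those of Rps27. Rpl39l, a relative of Rpl39 known from testis, was at 0.357, 0.695 and 0.291 times Rpl39 in the clones and 0.435, 0.495 and 0.428 times in EB3, with B8 highest (exact permutation p = 0.8). Rpl22l1 was at 0.253, 0.258 and 0.222 times Rpl22 in the clones and 0.265, 0.275 and 0.270 times in EB3 (exact permutation p = 0.1). Rpl7l1, a relative of Rpl7, was at 0.477, 0.396 and 0.480 times Rpl7 against 0.450, 0.444 and 0.447 times (exact permutation p = 1.0). Rpl3l had 0.523, 0.339 and 0.851 RPKM across the clones and 1.10, 0.709 and 0.503 RPKM in EB3. These 7 ratios were not adjusted for their number, since the exact test of 3 libraries against 3 cannot go below 0.1.

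**Figure D5:**
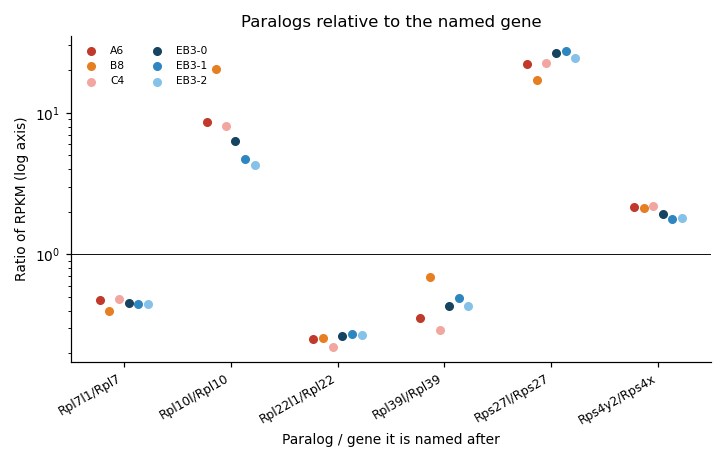
RPKM of 6 paralogs divided by that of the gene they are named after, 1 point per library on a log axis. B8 stands apart for Rpl10l/Rpl10 (20.5) and Rpl39l/Rpl39 (0.695), and the Rps27l and Rps4y2 ratios separate the clones from EB3 on opposite sides.

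Promoters were searched for the pyrimidine-rich start that marks TOP messengers. RefSeq start sites on GRCm38 were matched to 61 of the 80 genes (73 promoters). On the gene strand, the letters CTT followed by 2 bases that are each C or T began within 5 bases before to 10 bases after the start in 38.4% of these promoters and in 10.2% of all 32851. The windows and letters were chosen with earlier results known, and a match is no measurement of translation. The starts of Rplp2, Rps6, Rpl38 and Rps10 are shown because their levels in EB3 differed widely (83.5, 18.8, 5.23 and 10.3 RPKM) while the motif was present in each, in capitals. They lie at chr7:141447641-141447670 (plus), chr4:86857348-86857377 (minus), chr11:114668570-114668599 (plus) and chr17:27635225-27635254 (minus) of GRCm38.
Rplp2: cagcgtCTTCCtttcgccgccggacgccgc
Rps6: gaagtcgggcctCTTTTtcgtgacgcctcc
Rpl38: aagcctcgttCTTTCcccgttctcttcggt
Rps10: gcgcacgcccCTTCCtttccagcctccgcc

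Other genes of the translation machinery gave 0 calls in either direction in limma, with and without the intensity trend. Of 74 tested mitochondrial ribosomal protein genes, 64 were lower in the clones (median log2 fold change -0.10; 8 with an unadjusted p under 0.05), which is as large a share as among the cytosolic ones (86.5 and 86.1%). Their median EB3-0 difference was also 0.37, and their median without EB3-0 in the contrast was 0.03. Of 37 translation factors 26 were lower (median -0.07; 10 at an unadjusted p under 0.05), and of 31 ribosome assembly factors 25 (median -0.08; 5). Of 18 other TOP messengers 10 were lower (median -0.0095; 7), and of 16 regulators such as Myc and Mtor 8 (median -0.02; 4). The counts at an unadjusted p under 0.05 stand against 17.8% of all tested genes. Without EB3-0 the median of the other TOP messengers was 0.11, the opposite direction, and those of the translation factors, assembly factors and regulators were -0.036, -0.037 and -0.064. Without the trend the counts at an unadjusted p under 0.05 were 5, 10, 3, 7 and 3 in the order given. The other TOP list includes genes on chromosome 15, which the rule for the 80 genes leaves out. Of its 12 genes off that chromosome 7 were lower (median -0.013), with 4 at an unadjusted p under 0.05 in limma with the trend. Their median without EB3-0 was also 0.11.

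The genes left out by name or chromosome were few. On chromosome 15, Rpl8, a 60S protein at the catalytic core, had 4847, 4506 and 4719 RPKM across the clones and 5046, 3307 and 3350 RPKM in EB3, more than any of the 80 genes. Its log2 fold change was 0.29 ± 0.20 (SE; limma, adjusted p = 0.490). Of the 4 genes on this chromosome 3 had a positive log2 fold change (median 0.025). Rpl30 had 45.5, 43.3 and 43.9 RPKM against 62.1, 58.3 and 57.2 RPKM (log2 fold change -0.42 ± 0.08, SE; limma, adjusted p = 0.0710). Rpl3 (46.0 ± 1.31 and 44.5 ± 1.68 RPKM) and Rpl37 (4.72 ± 0.842 and 4.74 ± 1.07 RPKM) differed by less than the spread of the cultures (SD, n = 3 each). Of the others, Gnb2l1, the 40S scaffold RACK1, was at 1590 RPKM across the clones and 1649 RPKM in EB3, Rpl36al at 469 and 533, and Fau at 8.79 and 11.7 RPKM. Exact copies covered 1.83% of the windows of Rpl8, 0% of Gnb2l1, 84.6% of Rpl3, 87.5% of Fau and 24.4% of Rpl37, so Rpl37 was low without many of them.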

How the data were processed

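mRNA libraries (TruSeq) of 3 Sim2 clones and 3 EB3 cultures were sequenced on 1 lane. The authors mapped reads to mm9 with BWA at default parameters, computed exon coverage per gene and deposited it as RPKM, with cDNA length in the denominator; versions, strand use and the treatment of reads with several positions are not given in the sources used here. The table has 22602 genes and 0 unused sample columns. RPKM times cDNA length was a whole multiple of 1 read (tolerance 0.1) for 100% of values, so depth could be recovered. The tests used the deposited RPKM values. No count model was run on the recovered reads, so what it would call among these genes was not tested. The paper's own test of these libraries used another method. It called more genes than the 81 of 11595 that passed in limma here.

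Values were transformed to log2(RPKM + 0.5), which understates changes of low genes. The 11595 genes whose mean RPKM was 1 or more were tested with limma 3.58.1 (R 4.3.3; lmFit, eBayes with trend) and Benjamini-Hochberg adjustment over all of them. Single genes were also given a 2-sided exact permutation p. The fit was tested on simulated data. The EB3-1 and EB3-2 libraries are close, so SDs with n = 3 rest largely on EB3-0, and p-values measure the spread between these samples only.

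Spliced GENCODE vM1 transcripts were searched against mm9 (chromosomes 1 to 19, X, Y and M) with megablast (BLAST+ 2.17.0, word size 28, identity at least 90%). Pieces within 2000 bases were joined to count copies of at least 80% of the coding sequence. Positions are 1-based. Reads per gene are RPKM times length and cover counting error only.

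Named genes were Rpsa and the P proteins, the 5 highest and 5 lowest by EB3 level, called genes, the 5 largest rises and falls, paralogs with an l suffix, the 3 shortest and longest cDNAs, genes with a listed role, and ribosomal protein genes outside the rule. Genes named for their copies, overlap or promoter, and Rps4y2 beside Rps4x, were chosen after their values were seen. The members and lists were chosen with earlier results of these data known. The alternatives were other pseudocounts, filters, centring, quantile normalization, removal of trends with length and GC (natural splines, 5 degrees of freedom; GC known for 96.1% of tested genes), eBayes without trend, and leaving out or averaging libraries. A few genes that the naming rule picks or that belong to the sets are not reported here by name, and 3 genes are not drawn in the plots; counts and medians include them.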

Additional observations from a re-analysis of the deposited data

How the results depend on the processing

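Leaving out 1 library in turn gave 0 to 6 called ribosomal protein genes and a median log2 fold change of -0.21 to -0.018, and both ends away from the reported values came from EB3 libraries: 6 calls and -0.018 without EB3-0, and 0 calls and -0.21 without EB3-1. When EB3-1 and EB3-2 were merged into their mean, the median was -0.21, again with 0 calls. The median was -0.035 with cDNA length trends removed and -0.028 with length and GC trends removed. The other pseudocounts, filters, centring, quantile normalization and eBayes without a trend left 0 calls and a median between -0.14 and -0.11. The median EB3-0 difference fell to 0.10 with the length trend removed and otherwise stayed between 0.36 and 0.39. With the chromosome 15 genes included, the share of reads was 2.37, 2.32 and 2.28% in A6, B8 and C4 and 2.94% in EB3-0, and without the paralogs with an l suffix it was 1.86, 1.83 and 1.79% in the clones. For 31 named genes under 16 settings, 452 of 493 log2 fold changes had the sign of the reported one, and 17 genes had it under every setting. 3 of the 493 passed the threshold, all without EB3-0. No paired analysis was possible because the clones and the EB3 cultures share no replicate labels. With 3 libraries a group, the lowest genes had as few as 34 reads, which limits the precision of Rpl29 and Rpl38 most.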
